A study of Mus musculus with 6 samples.

Results

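Mitochondria carry their own ribosomes, whose RNA core is the 12S rRNA of the small subunit and the 16S rRNA of the large subunit, both transcribed from the mitochondrial genome (genes mt-Rnr1 and mt-Rnr2). NSUN4 is a mitochondrial methyltransferase known to place 5-methylcytosine (m5C) on 12S rRNA near the decoding centre, and METTL15 is known to place N4-methylcytosine on a neighbouring cytosine. Both rRNAs receive short A tails, and both were present in the poly(A) RNA sequenced here. In bisulfite sequencing of RNA (RNA BS-seq), an unmodified cytosine is read as T and a protected one as C, so the methylation level of a position is the share of its reads that were left unconverted. It does not tell kinds of cytosine modification apart, nor a modified cytosine from one that bisulfite did not reach.

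The positions described are all cytosines of the 2 rRNAs on the plus strand of the mitochondrial genome (GRCm38) that the deposited lists call methylated and that had coverage of at least 20 reads in at least 1 library. There were 482 of them among 4920022 in the whole series, with 184 in mt-Rnr1 and 298 in mt-Rnr2, and each library held between 465 and 479. The RNA came from cortical neurons of wild-type C57BL/6 mice, taken at E16.5 from pooled male and female embryos, cultured for 7 days and silenced overnight with the sodium channel blocker tetrodotoxin (TTX, 1 μM) and the NMDA receptor antagonist DL-AP5 (100 μM). KCl at 55 mM was then given for a time of 0 h, 2 h, or 6 h, with 2 biological replicates per time and 6 libraries in all. The 0 h neurons are thus silenced and not depolarized, and every group carries both blockers. The lists hold only positions with at least 10 reads, of which at least 1 is unconverted.

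Library coverage summed over all listed cytosines was between 1637706778 and 2352246636, and the median coverage of a listed cytosine was between 324 and 480 reads. The 6 h replicate 1 library listed the most positions and stood apart by its unconverted reads, so its values are given separately where they matter. Each of the 7 neuronal markers checked, such as Tubb3 and Map2, was covered in every library. The astrocyte genes Slc1a3, Aldh1l1, and Gfap were covered in every library as well, whereas Mog, Csf1r, C1qa, and Cldn5 had no position at 20 reads. The part of glial cells in the rRNA values was not tested.

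mt-Rnr1 spans chrM:70-1024 (955 nt, 188 cytosines) and mt-Rnr2 spans chrM:1094-2675 (1582 nt, 304 cytosines), and both are non-coding genes with a single exon. The sequences below are the 21 nt around the positions on which the results turn, with the cytosine in question in capitals. The first is the 12S position of the NSUN4 type, which is the only position of 12S rRNA in the study's high-confidence list. The next is the cytosine 2 nt upstream of it. The last 3 are the positions with the highest mean level in the 5′ run of 12S rRNA and in 16S rRNA, and show the background against which the first is set.
12S 911: acacaccgccCgtcaccctcc
12S 909: gcacacaccgCccgtcaccct
12S 159: taaacatttaCttaaaattta
12S 188: gtatcaagcaCattaaaatag
16S 1563: cggaaaaaacCtttaatagtg

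Position 911 lies at chrM:911-911 on the plus strand, at nt 842 of 12S rRNA and 113 nt before its 3′ end, and the 21 nt around it have a GC content of 71.4%, against 35.8% for the whole of 12S rRNA. It had the highest level of all cytosines of both rRNAs in every library. In the 0 h libraries, 457 of 1067 reads were unconverted in replicate 1 and 311 of 756 in replicate 2, which are levels of 42.8% and 41.1%. The 2 h libraries had levels of 43.8% (632 of 1443 reads) and 49.7% (491 of 988 reads). The 6 h libraries had 47.7% (651 of 1365 reads) and 44.5% (861 of 1936 reads). A large minority of the reads was thus unconverted in every library, and both 0 h libraries lay below all 4 libraries of depolarized neurons.

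The mean level at this position was 42.0% ± 1.2 (SD, n = 2) before depolarization (0 h), 46.7% ± 4.17 after 2 h, and 46.1% ± 2.28 after 6 h. The Wilson 95% interval of a single library was narrowest in 6 h replicate 2 (42.3% to 46.7%) and widest in 0 h replicate 2 (37.7% to 44.7%), and these intervals cover counting error only, since reads copied by PCR from 1 molecule were counted as often as they were read. Between its replicates the 2 h level differed by more than the 0 h and 2 h means did.

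The difference of 4.76 percentage points between 0 h and 2 h did not pass the test across all positions (Fisher's exact test, two-sided, on the reads of both replicates, p = 0.00882, Benjamini-Hochberg adjusted p = 0.0764 over 2528 positions). For 0 h vs. 6 h the difference was 4.10 percentage points (Fisher's exact test, p = 0.0116, adjusted p = 0.119 over 2662 positions). For 2 h vs. 6 h it was −0.66 percentage points (Fisher's exact test, p = 0.789, adjusted p = 1 over 2773 positions). The Newcombe 95% interval of the difference in summed reads was 1.05 to 7.07 percentage points between 0 h and 2 h. It was 0.83 to 6.50 between 0 h and 6 h and −3.00 to 2.22 between 2 h and 6 h. Fisher's exact test and these intervals pool the reads of both replicates and cover counting error only. In the fits that allow for the spread between replicates, the unadjusted p was 0.557 by limma and 0.334 by the quasi-binomial model between 0 h and 2 h, 0.701 and 0.210 between 0 h and 6 h, and 0.936 and 0.914 between 2 h and 6 h. The first 2 comparisons share the 0 h libraries, and with 2 libraries a side an exact permutation test cannot go below p = 0.333.

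Which library is left out decided the call: without 2 h replicate 1 the 0 h vs. 2 h difference was 7.71 percentage points (Fisher's exact test, adjusted p = 0.00277), and without 2 h replicate 2 it was 1.81 (adjusted p = 0.843). For 0 h vs. 6 h the difference was 5.71 without 6 h replicate 2 (Fisher's exact test, adjusted p = 0.0128) and 2.49 without 6 h replicate 1 (adjusted p = 0.505). For 2 h vs. 6 h the sign turned, to 2.29 without 2 h replicate 2 and to 0.95 without 6 h replicate 2.

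**Figure D1:**
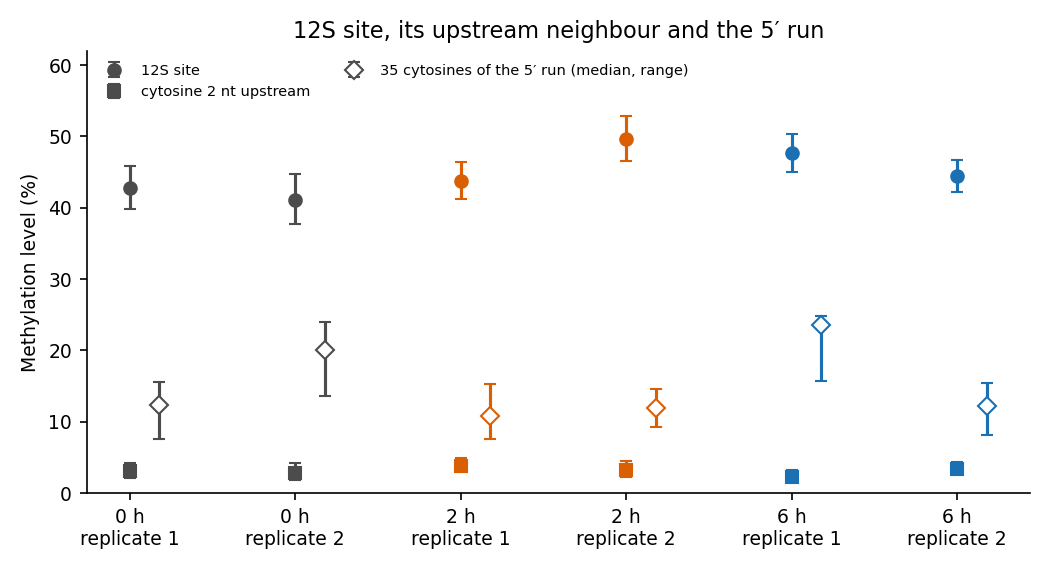
Methylation level (%) in the 6 libraries of the 12S position 911 (circles) and of the cytosine 2 nt upstream (squares), with Wilson 95% intervals, and the median (open diamonds) and range of the 35 cytosines of the 5′ run of 12S rRNA. Position 911 stays between 41.1% and 49.7%, above the highest value of the run in every library, and the run is high in 0 h replicate 2 and 6 h replicate 1.

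Next to this position, the listed cytosines were almost fully converted, with 1 exception. The cytosine 2 nt upstream, position 909 (nt 840 of 12S rRNA), had levels of 3.04% and 2.80% before depolarization, 3.77% and 3.18% after 2 h, and 2.28% and 3.39% after 6 h. These values rest on between 21 and 65 unconverted reads. Both 2 h libraries lay above both 0 h libraries, while the 6 h libraries overlapped those of both other times. The differences at position 909 were not tested. METTL15 is known to modify a cytosine 2 nt before the NSUN4 cytosine, and the reads do not show which modification, if any, was protected here.

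No other cytosine within 10 nt of position 911 exceeded 0.424% in any library. There are 11 of them besides position 909, and between 6 and 11 were listed per library, with at most 6 unconverted reads each. Position 910, which lies between both, had between 1 and 5 unconverted reads and a level between 0.137% and 0.325%. Position 909 was thus 5.39 to 20.5 times the highest of these neighbours, and position 911 was 11.6 to 20.9 times position 909. Cytosines on either side of the pair were converted on the same stretch of RNA at a coverage of about the same size.

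**Figure D2:**
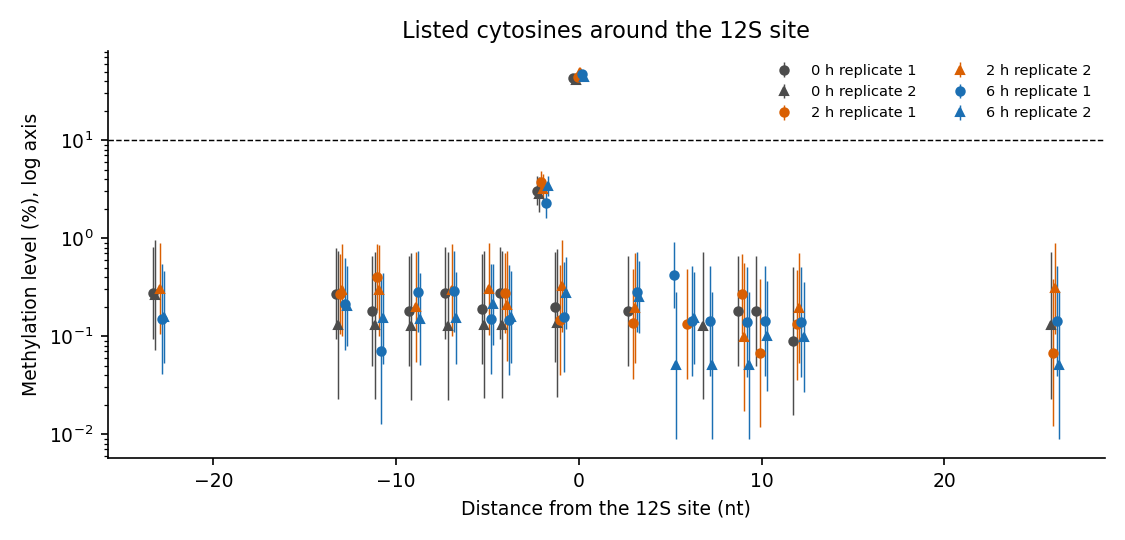
Methylation level (%, log axis) of each listed cytosine against its distance in nt from the 12S position 911, with Wilson 95% intervals, by library, and the 10% minimum of the filter as a dashed line. Position 911 stands alone above the line in all 6 libraries, position 909 lies between 2.28% and 3.77%, and the other cytosines within 10 nt lie at or below 0.424%.

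A position passed the study's standard filter in a library with a coverage of 20 reads or more, a level of 10% or more, and 6 or more methylated reads, and it was counted for a time when both replicates passed. In 12S rRNA, 32 positions passed before depolarization, 23 after 2 h, and 31 after 6 h, and 20 of them passed at all 3 times. In 16S rRNA none passed at any time. The lowest passing levels of the libraries were between 10.0% and 10.9% and the highest levels just outside were between 9.20% and 9.90%.

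A passing position was called isolated when no other cytosine of its strand passed within 10 nt. Position 911 was the only isolated position of the rRNAs, at each of the 3 times, and it was isolated within 20 nt as well. All the other positions that passed in both replicates in 12S rRNA lay between nt 44 and 170, near its 5′ end, a span called the run below. Since the study's high-confidence list comes from the same libraries, finding this position there is not independent of the levels above.

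The mitochondrial mRNAs served as the nearest comparison, because they come from the same genome and organelle. Of their positions, 773, 699, and 739 passed at the 3 times, of which 2, 1, and 5 were isolated. Only 1 of the 673 positions that passed in all 6 libraries was isolated at every time, position 11363 of mt-Nd4, which encodes a subunit of complex I. Its level was between 42.9% and 77.4%, and its coverage was between 22 and 40 reads. The cytosines on either side of it, 11 and 14 nt away, had levels of 42.3% to 75.9% and 31.8% to 76.7%. It was therefore isolated by the spacing of cytosines, whereas the 12S position was surrounded by listed cytosines at low levels.

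The run at the 5′ end of 12S rRNA spans chrM:113-239, which is nt 44 to 170 of the rRNA, and ends 672 nt before position 911. Its ends are by definition the first and last 12S positions, other than position 911, that passed at any time. The run holds 35 cytosines, all of them listed, of which 34 passed at 1 or more times and 19 at all 3. The median level of the 35 was 12.3% and 20% (0 h, replicates 1 and 2), 10.8% and 11.9% (2 h), and 23.6% and 12.2% (6 h). The libraries 0 h replicate 2 and 6 h replicate 1 were high, and each of the 2 differed from its own replicate by more than the other 4 libraries differed from each other.

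Within a library, the number of unconverted reads was much alike from one cytosine of this run to the next. The study's 3C filter removes reads with over 3 unconverted cytosines and needs the single reads, so whether the reads behind the run, and with them its passing positions, would remain after it was not tested. The number was between 5 and 12 in the 4 libraries of 0 h and 2 h, between 18 and 26 in 6 h replicate 1, and between 7 and 17 in 6 h replicate 2. The median coverage in the run was 66 and 47 reads in the 0 h libraries, 85 and 79 after 2 h, and 104 and 105 after 6 h. Position 159 gave levels between 11.5% and 24.0% on 46 to 100 reads, and position 188 gave 12.7% to 24.0% on 47 to 105 reads. Position 911, by contrast, was covered by 757 to 1937 reads, of which 311 to 861 were unconverted.

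Further along 12S rRNA the coverage rose, while the number of unconverted reads changed little at first and then fell. In windows of 100 nt, the median coverage went from 54 to 119 reads at nt 101 to 200, to 200 to 500 reads at nt 201 to 300, and to 1362 to 3830 reads at nt 701 to 800. The median number of unconverted reads was 8 to 25, 9 to 25, and 2 to 6.5 in these 3 windows. The median level therefore fell from 9.52% to 22.7% in the first, through 2.18% to 6.23%, to 0.0761% to 0.325% in the last. The fewest reads, however, lay outside the run. Between nt 12 and 18, the 1 to 4 cytosines listed in 5 of the 6 libraries had 27 to 78 reads, fewer than any run position of the same library, and levels of 1.72% to 7.14%. The last listed cytosine, at nt 915, had 112 and 157 reads in the 6 h libraries and levels of 0.893% and 0.637%. Low coverage thus did not go with a high level everywhere, and the part of coverage in the levels of the run was not tested.

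16S rRNA had the same pattern in other places. From nt 301 to 400 to nt 401 to 500 its median coverage dropped from between 3749 and 9323 reads to between 56 and 196 reads. The median number of unconverted reads was 6 to 17 before the drop and 4 to 12 after it, and the median level went from between 0.125% and 0.249% to between 1.70% and 9.88%. A smaller rise in level, to between 0.446% and 3.33%, lay at nt 1201 to 1300, where the coverage was 360 to 1025 reads.

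By mean level, the 5 highest positions of 16S rRNA lay in the stretch at nt 454 to 638 (chrM:1547-1731), which holds 36 cytosines, all listed, and whose ends are the first and last positions that passed in 0 h replicate 1. In 2 h replicate 1 and in no other library the highest level of 16S rRNA lay outside it, with 4.68% at nt 39. Its median level was 9.62% and 4.76% in the 0 h libraries, 1.96% and 1.81% after 2 h, and 6.08% and 3.48% after 6 h. Only 0 h replicate 1, with 17 positions, and 6 h replicate 2, with 1 position, had any that passed the filter, and no position passed in both replicates of a time. The position with the highest mean level of 16S rRNA, 1563, had 15.4% and 7.84% before depolarization, 2.61% and 4.49% after 2 h, and 6.15% and 9.76% after 6 h, on 51 to 153 reads. Both 2 h libraries were the lowest, and the 0 h replicates lay further from each other than those of the other times.

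**Figure D3:**
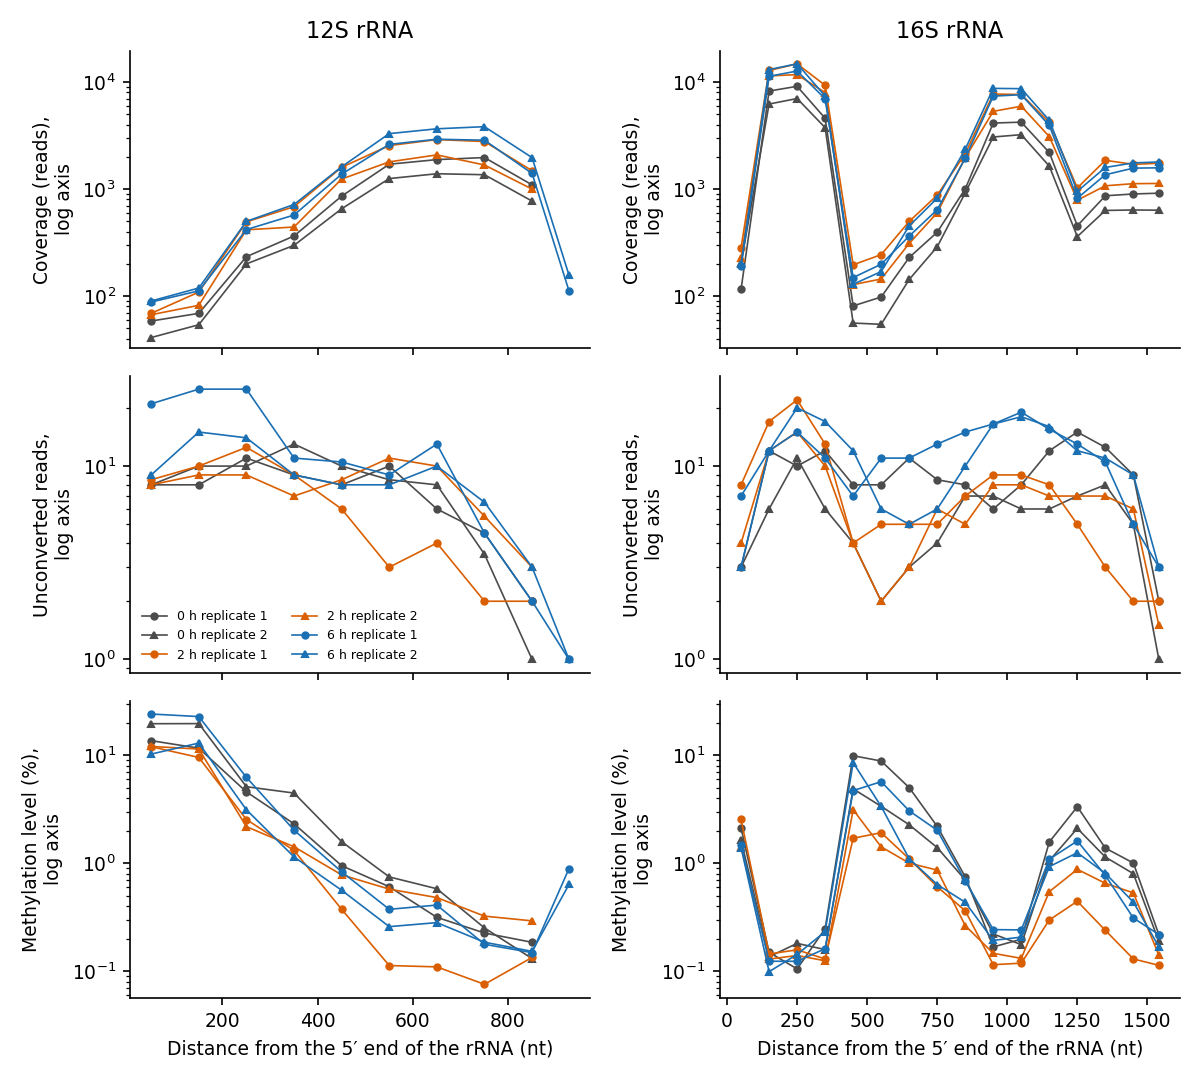
Median coverage (reads), median number of unconverted reads, and median methylation level (%) of the listed cytosines in windows of 100 nt along 12S rRNA (left) and 16S rRNA (right), all on log axes, 1 line per library, against the distance from the 5′ end in nt. Coverage ranged from 41 to 14820 reads and the unconverted reads from 1 to 25. The highest levels lie in windows of low coverage, but not every window of low coverage has a high level, as at the 3′ end of 12S rRNA.

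Predicted pairing did not set the 12S run and the 16S stretch apart in the same direction. With RNAfold at 70 °C, the setting of the study's own predictions, the median pairing probability was 0.375 over the 35 cytosines of the 12S run against 0.223 over the 152 other cytosines. In 16S rRNA it was 0.177 over the 36 cytosines of the stretch against 0.320 over the other 268. Position 911 had 0.365 and position 909 had 0.368. These are predictions for the naked rRNA, given as a description.

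Over all listed cytosines, the median level was between 0.545% and 1.81% in 12S rRNA and between 0.239% and 0.912% in 16S rRNA, against 7.91% to 22.9% in the mitochondrial mRNAs. The mRNAs differed, with medians of 0.9% to 2.3% in mt-Co1, 1.1% to 5.4% in mt-Cytb, and 2.25% to 5.3% in mt-Nd1. They were 12.8% to 80.6% in mt-Nd2, 31.6% to 60.0% in mt-Nd4, and 19.6% to 47.3% in mt-Nd5, whose median coverage was only 45 to 156 reads across these genes. Without the run, position 911, and the 16S stretch, the median level of the rRNAs was between 0.232% and 0.857% in 12S rRNA and between 0.193% and 0.76% in 16S rRNA. Of these remaining positions, 2 in 0 h replicate 2 and 6 in 6 h replicate 1 passed the filter, all between nt 187 and 218 of 12S rRNA, just beyond the run. Over the cytosines with a level under 10%, the unconverted share of the reads of both rRNAs was 0.448% and 0.454% before depolarization, 0.229% and 0.286% after 2 h, and 0.399% and 0.308% after 6 h. The same share was 0.520% to 1.04% in the mitochondrial mRNAs and 0.163% to 0.231% in the nuclear genome. For 12S rRNA alone the share was 0.710% and 1.01% before depolarization, 0.423% and 0.679% after 2 h, and 0.653% and 0.454% after 6 h. It was thus above the mRNA share of the same library in both 0 h libraries and in 2 h replicate 2. For 16S rRNA alone the share was 0.192% to 0.387%. Over both rRNAs together, the 2 h libraries were the lowest and the 0 h libraries the highest. However, over rRNA cytosines with at least 5000 reads the share was 0.129% to 0.175%, with 0 h replicate 1 the lowest. The levels of position 911 lay above each of these shares in every library, but shares over cytosines chosen for a level under 10% could not exceed 10%.

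**Figure D4:**
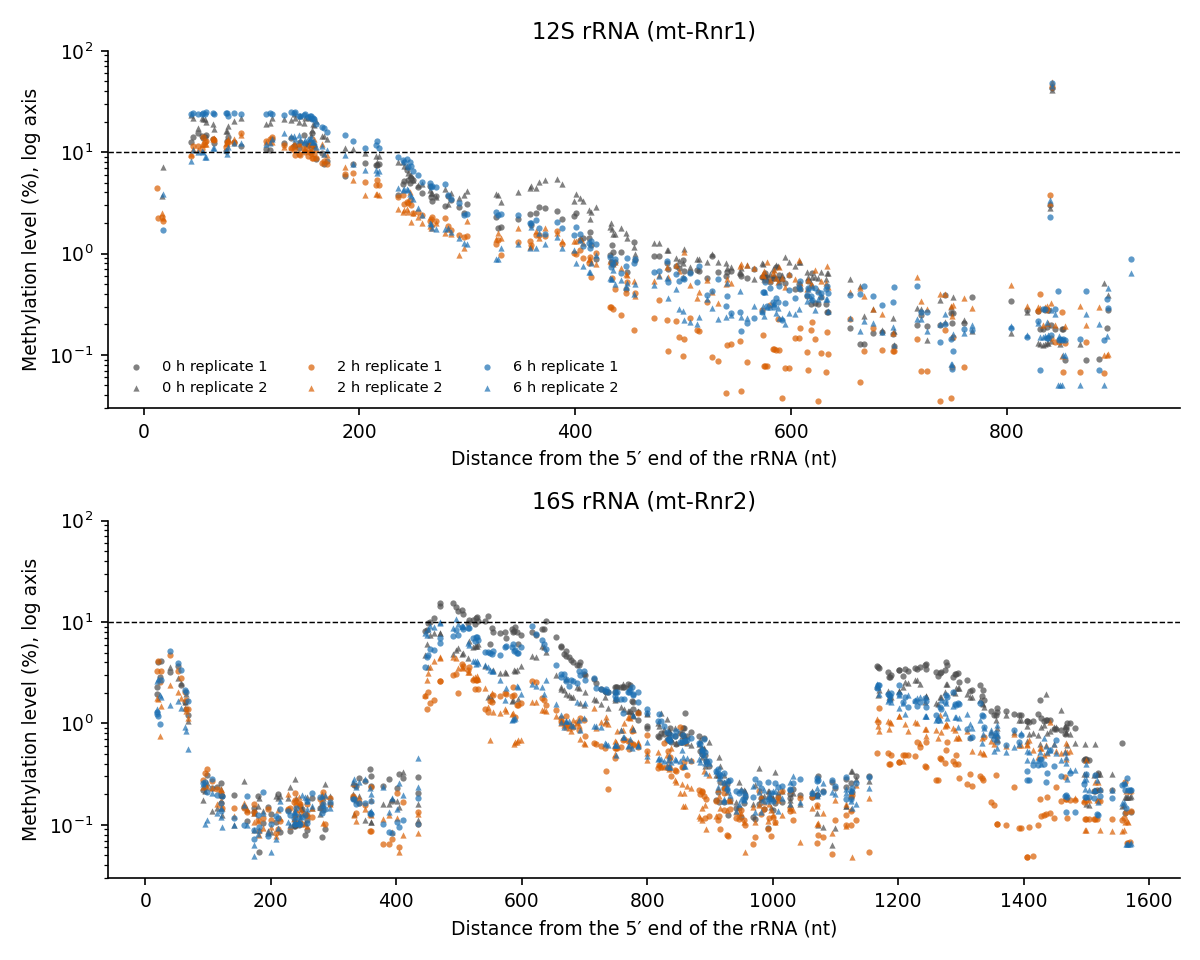
Methylation level (%, log axis) of each listed cytosine with at least 20 reads along 12S rRNA (top) and 16S rRNA (bottom), against the distance from the 5′ end in nt, by library, with the 10% minimum of the filter as a dashed line. In 12S rRNA the run at nt 44 to 170 lies around the line and position 911 (nt 842) stands alone near 45%, and in 16S rRNA the 5 highest mean levels lie at nt 454 to 638.

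Between times, all rRNA positions that could be tested were of 12S rRNA, since a position had to pass in both replicates of either time. They were 32 between 0 h and 2 h, 35 between 0 h and 6 h, and 34 between 2 h and 6 h. Apart from the isolated position, all of them lay in the run, where 1 read can count at several neighbouring cytosines. The rRNA counts and shares given here and below are thus not of separate observations, and setting them against all positions tested is descriptive only. No rRNA position was called by Fisher's exact test at an adjusted p of 0.05, against 10.6%, 6.91%, and 12% of all positions tested in the 3 comparisons. Without adjustment, Fisher's exact test had 1, 1, and 12 rRNA positions at p under 0.05 (3.12%, 2.86%, and 35.3% of those tested), against 17.7%, 15.3%, and 21.7% of all positions tested. The 12 between 2 h and 6 h all lay in the run, which was high in 6 h replicate 1. The median level of the run was 23.6% in that library, 12.2% in 6 h replicate 2, and 10.8% and 11.9% after 2 h. The Cochran-Mantel-Haenszel test called no rRNA position at an adjusted p of 0.05, against 242, 197, and 429 of all positions (9.57%, 7.40%, and 15.5%). At an unadjusted p under 0.05 the Cochran-Mantel-Haenszel test had 1, 1, and 11 rRNA positions, and no count over all positions was made at that threshold to set beside them. limma and the quasi-binomial model called 0, 0, and 0 of all positions tested, and limma with the replicate block called 84, 1, and 1, so that the absence of rRNA positions among their calls does not set the rRNAs apart. At an unadjusted p under 0.05, limma had 0, 0, and 0 rRNA positions against 215, 74, and 153 of all positions, and the quasi-binomial model had 1, 0, and 0 against 247, 121, and 133.

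The filter left 32 positions of 12S rRNA before depolarization, 23 after 2 h, and 31 after 6 h, so that some were tested only because they were high at 1 of the times compared, and the direction of their differences is not counted for that reason. Without 6 h replicate 2, 11 of 34 rRNA positions were called for 2 h vs. 6 h, against 19.9% of all positions tested. The difference between position 911 and the run was not tested.

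The coverage of both rRNAs relative to nuclear transcripts was higher after depolarization. Coverage was compared as the median over the cytosines listed in all 6 libraries (159 of mt-Rnr1 and 287 of mt-Rnr2), scaled to a summed coverage of 1000000000 over nuclear cytosines. 12S rRNA had 554 and 515 scaled reads before depolarization, 917 and 888 after 2 h, and 967 and 1055 after 6 h. 16S rRNA had 860 and 743, then 1483 and 1138, then 1591 and 1644. For both rRNAs every library of 2 h and of 6 h was above both 0 h libraries, as was so for 25.6% (2 h) and 37.7% (6 h) of all genes tested. More cells of a type and more RNA per cell cannot be told apart in a bulk culture, and poly(A) RNA holds only the tailed rRNA molecules and those carried along with them.

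On the log2 scale, 12S coverage was higher by 0.76 ± 0.075 (SE) at 2 h than at 0 h (limma over 2070 genes, adjusted p = 0.00183) and by 0.92 ± 0.075 at 6 h than at 0 h (limma, adjusted p = 0.000234). 16S coverage was higher by 0.70 ± 0.14 at 2 h (limma, adjusted p = 0.0181) and by 1.02 ± 0.14 at 6 h (limma, adjusted p = 0.0014). Of all genes tested, 8.89% were called higher in the first contrast and 24.5% in the second, and both contrasts share the 0 h libraries. Without 0 h replicate 1 or 0 h replicate 2, the 16S call at 2 h was lost, with differences of 0.81 and 0.60 (limma, adjusted p = 0.0638 and 0.108). From 2 h to 6 h the differences were 0.16 for 12S (limma, adjusted p = 0.128) and 0.32 for 16S (limma, adjusted p = 0.11), where 19.1% of genes were called higher. Without 2 h replicate 1, the last became 0.51 (limma, adjusted p = 0.00628).

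The mitochondrial mRNAs are transcribed from the same genome. Over all their cytosines, their median scaled coverage was 252 and 232 before depolarization, 249 and 223 after 2 h, and 216 and 240 after 6 h. The coverage of 12S rRNA relative to theirs was 2.20 and 2.22, then 3.68 and 3.98, then 4.47 and 4.40, and that of 16S rRNA was 3.41 and 3.21, then 5.96 and 5.10, then 7.35 and 6.86. For 0 h vs. 2 h the log2 differences of the single mRNAs reached from −0.34 for mt-Nd5 (limma, adjusted p = 0.27) to 0.48 for mt-Nd2 (limma, adjusted p = 0.0865), both of which encode subunits of complex I. As for the rRNAs, both 2 h libraries lay above both 0 h libraries for mt-Nd1 (622 and 502, then 784 and 699 scaled reads), mt-Nd2 (77.4 and 69.1, then 102 and 102), and mt-Co1 (6345 and 6524, then 7388 and 6934), whereas their 6 h libraries overlapped those of 0 h. For 0 h vs. 6 h the log2 differences reached from 0.075 for mt-Co1, a subunit of complex IV, to 0.19 for mt-Nd1 (limma, adjusted p = 0.508 and 0.311). The difference between rRNAs and mRNAs was not tested as such. Scaled by mitochondrial mRNA coverage in place of nuclear coverage, 12S rRNA was higher by 0.79 at 2 h and by 1.00 at 6 h, mt-Nd1 was called at 2 h as well (0.44, limma, adjusted p = 0.035), and 147 genes were called higher and 91 lower for 0 h vs. 2 h, against 184 and 239 with nuclear scaling.

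**Figure D5:**
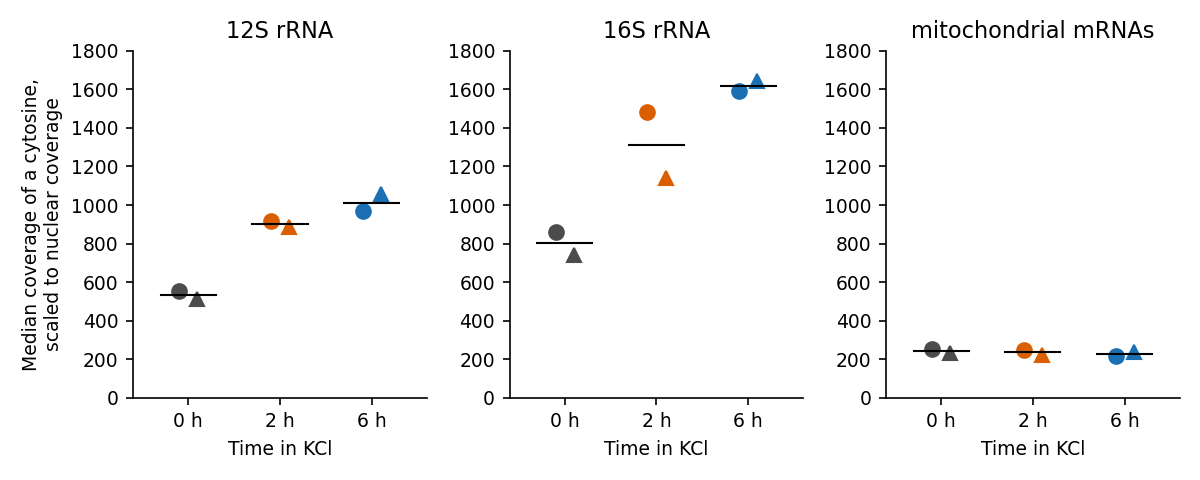
Median coverage of a cytosine, scaled to a fixed nuclear coverage, for 12S rRNA, 16S rRNA, and the mitochondrial mRNAs in each library (circles, replicate 1; triangles, replicate 2), with the mean of the replicates as a line. 12S rRNA goes from 515 to 554 at 0 h to 967 to 1055 at 6 h and 16S rRNA from 743 to 860 to 1591 to 1644, while the median over the mRNAs lies between 216 and 252.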

How the data were processed

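RNA BS-seq of poly(A) RNA was measured in 6 libraries. Per the study's methods, reads were trimmed and mapped to GRCm38 with meRanRh of meRanTK, and meRanCall was run on reads with an unambiguous alignment. Whether the 3C filter, which removes reads with over 3 unconverted cytosines, came before the lists is not given in the sources used here. The authors deposited raw read counts per position (coverage, unconverted reads, reads with another base) and the methylation level as a fraction, which was recomputed from the counts. Depth per library is given with the results.

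The rRNA positions, gene lists, and tests were chosen with earlier results of these data known. Position 911 was taken as the 12S position of the study's high-confidence list, whose values were not used. Named were that position, the listed cytosines within 10 nt, the 5 positions of each rRNA with the highest mean level (given in part), and isolated positions that passed in all 6 libraries. Positions with at least 10 reads in the 4 libraries compared were tested by Fisher's exact test on summed reads. limma was run on log2 odds with 0.5 reads added. Gene coverage, a test added after the data were seen, was compared by limma on log2 scaled medians over genes with at least 10 cytosines, because 1 read counts at each cytosine it spans. Fisher's exact test, the Cochran-Mantel-Haenszel test, limma, and the quasi-binomial model were tested on simulated data, where the quasi-binomial model recovered almost none of the changed positions. Alternatives were other minimums, summed replicates, a quasi-binomial model, limma, fits with a replicate block, the removal of each replicate, other isolation distances, and, added after the data were seen, a crossed block and another coverage scale. Sequences are from the RefSeq GRCm38 genome. Software was limma 3.58.1 in R 4.3.3, ViennaRNA 2.7.2 (maximum span 150 nt), and Python 3.11.15 with scipy 1.17.1, statsmodels 0.14.6, pandas 2.3.3, numpy 2.4.6, and matplotlib 3.10.9.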

Additional observations from a re-analysis of the deposited data

Results flagged for a closer look

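On the minus strand over both rRNA genes, which no comparison above used, a few cytosines were listed, 6 to 41 per library. The share of unconverted reads over them was 4.01% and 2.30% before depolarization, 1.02% and 4.44% after 2 h, and 3.43% and 1.22% after 6 h. Each of these positions had at most 3 unconverted reads and none passed the filter. Since the lists hold only positions with at least 1 unconverted read, these shares leave out the fully converted cytosines, are upper values, and lie above the limit that a count of 0 allows by construction, so they show no signal by themselves. The share of antisense reads was not tested.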

How the results depend on the processing

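Counts of passing positions depended on the minimums because the run lay near them. In 12S rRNA, a coverage minimum of 50 left 13 positions at 0 h, a minimum of 10 methylated reads left 2 at 0 h and 7 at 2 h, a level minimum of 0.05 gave 38 at 2 h, and a level minimum of 0.2 left 1, 1, and 1, which is position 911. With 1 replicate, 12S rRNA had 32 to 38 before depolarization, 23 to 33 after 2 h, and 31 to 42 after 6 h, and 16S rRNA had 0 to 17 before depolarization and 0 to 1 after 6 h. In 16S rRNA, summed replicates gave 5 at 0 h and a level minimum of 0.05 gave 11 at 6 h. Within 5 nt in place of 10, 4, 4, and 4 positions were isolated.

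At position 911, a test coverage of 50 reads brought the 0 h vs. 2 h difference of 4.76 percentage points past the threshold (Fisher's exact test, adjusted p = 0.0487), so that 1 of 13 rRNA positions was called, against 18.2% of all positions. A level minimum of 0.05 gave 1 call of 48 in that comparison and 2 of 53 between 2 h and 6 h, against 13.8% and 17.1% of all positions. Leaving out each replicate moved the difference at position 911 from 1.81 to 7.71 (0 h vs. 2 h), from 2.49 to 5.71 (0 h vs. 6 h), and from −3.61 to 2.29 (2 h vs. 6 h; the sign turned at 2.29 and 0.95), and the rRNA calls from 0 to 1 of 32, from 0 to 1 of 35, and from 0 to 11 of 34, against 6.72% to 10.4%, 4.96% to 18.4%, and 8.08% to 19.9% of all positions. With the replicate block (Cochran-Mantel-Haenszel test) the differences were 4.09, 4.14, and −0.51 percentage points, and no call changed. The labels do not say whether libraries with the same replicate number share a culture or preparation. Deviations of same-numbered libraries correlated at 0.12, 0.0038, and −0.10 over the positions tested. Over all positions, limma with the replicate block called 84, 1, and 1 and, with the numbers crossed, 21, 1, and 23, against 267, 184, and 333 by Fisher's exact test. limma without the block and the quasi-binomial model called 0, 0, and 0 each, with 215, 74, and 153 and with 247, 121, and 133 at an unadjusted p under 0.05.

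The unconverted share of the rRNA cytosines, over those with a level under 1%, was 0.247% and 0.273% before depolarization, 0.168% and 0.232% after 2 h, and 0.248% and 0.230% after 6 h, and over those with at least 5000 reads 0.129%, 0.159%, 0.135%, 0.133%, 0.175%, and 0.168%. Coverage of 16S rRNA from 2 h to 6 h passed with mitochondrial mRNA scaling (0.37, limma, adjusted p = 0.0445), and leaving out each replicate moved it from 0.13 to 0.51, and for 0 h vs. 2 h from 0.51 to 0.89. Leaving out each replicate, limma called 79 to 229 genes higher and 49 to 328 lower for 0 h vs. 2 h. The number of libraries, 2 per time, and the low coverage of the 12S run limit these comparisons, and the causes of the changed calls were not tested.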
